A study of Mus musculus with 11 samples.

Results

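The miRNAs of the Dlk1-Dio3 imprinted locus were followed in mouse oviducts after injection of lipopolysaccharide (LPS), the endotoxin that coats Gram-negative bacteria. Members were chosen by name alone, as the mouse miRNA probes whose miRNA number is 1 of 43 assigned to this locus, in any letter or arm form. This gave 54 of the 566 mouse miRNA probes of the nCounter assay, and all 43 numbers had at least 1 probe. In the RefSeq gene table (GRCm38.p6) the 54 probes belong to 45 miRNA genes, each lying between Dlk1 and Dio3 on chromosome 12.

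All mice were female CD1 mice, an outbred strain, 6 to 8 weeks old with normal estrous cycles, injected intraperitoneally on the day of estrus and killed 24 h later. Control mice (n = 3) received no LPS, low dose mice (n = 4) received 2 µg and high dose mice (n = 4) received 10 µg of E. Coli LPS of serotype 055:B5 in phosphate-buffered saline. The design text plans 4 mice per treatment, and 1 control mouse was not analysed here. Per the labels each of the 11 mice is a separate animal, and its whole oviduct RNA was counted in 1 lane. In this assay single tagged miRNAs bind a colour-coded probe and are counted without amplification.

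The Dlk1-Dio3 domain is a classic imprinted region. Dlk1, Rtl1 and Dio3 are expressed from the paternal chromosome, while the non-coding RNAs Meg3, Rian and Mirg and the miRNAs processed from their long maternal transcripts come from the maternal one. The miRNAs are best known from brain, placenta and embryo, and a group of them lies antisense to Rtl1, whose messenger RNA they cleave or repress.

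The sequences below are shown because the results turn on these members. With miR-543 set aside, miR-154 and miR-136 stood furthest above background, and miR-377 and miR-376a came next. The smallest p against control was that of miR-300, and one strand of miR-381 is nearly identical to one of miR-300. The count of miR-543 carries a reservation, given further on, because of a factor in its probe name. All sequences are mature ones from RefSeq (GRCm38.p6), on the plus strand of chromosome 12. They are written 5′ to 3′ with the seed, bases 2 to 8, in capitals. The names of 36 of the 54 probes give no arm, so both strands of the hairpin are printed for these, and only 1 of each pair need be what the probe read. The deposited data also give each probe the identifier of a mature miRNA, which was not used to choose between the strands. The hairpin of miR-154 lies at chr12:109738433-109738498 and that of miR-136 at chr12:109595327-109595388.
miR-154-5p: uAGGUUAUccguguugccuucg
miR-154-3p: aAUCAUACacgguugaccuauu
miR-136-5p: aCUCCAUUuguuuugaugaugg
miR-136-3p: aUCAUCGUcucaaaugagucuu
miR-377-5p: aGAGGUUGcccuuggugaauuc
miR-377-3p: aUCACACAaaggcaacuuuugu
miR-376a-5p: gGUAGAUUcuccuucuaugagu
miR-376a-3p: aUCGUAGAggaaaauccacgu
miR-300-5p: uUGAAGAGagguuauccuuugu
miR-300-3p: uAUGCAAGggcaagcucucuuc
miR-381-5p: aGCGAGGUugcccuuuguauauu
miR-381-3p: uAUACAAGggcaagcucucugu
miR-543-5p: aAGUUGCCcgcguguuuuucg
miR-543-3p: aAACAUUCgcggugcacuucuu

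The members share their locus far more than their seeds. All 54 probes matched RefSeq by name, 18 of them by exact arm, 32 to both arms of a hairpin and 4 to a single listed arm. For those 4 the listed arm need not be the one that the probe read. These gave 86 mature sequences with 83 distinct seeds. Among these listed strands a seed was shared by only 3 pairs: miR-379-3p with miR-411-3p (AUGUAAC), miR-410-5p with miR-494-5p (GGUUGUC), and miR-376b-5p with miR-376c-5p (UGGAUAU). The probe names of these 6 give no arm, so the shared seeds need not be those of the strands that were counted. No detected probe names any of these 6 strands. miR-300-3p and miR-381-3p differ at 3 of 22 bases, 1 of them in the seed, so cross-hybridisation between their probes was not tested and their counts are uncertain as separate values. miR-376a-3p and miR-376b-3p differ at 3 of 21 bases, and the same limit applies.

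Most of the cluster was near background in the oviduct. Detection required, in at least 3 of 11 lanes, a count above a bound set at 2 SD over the mean of that lane's 8 negative controls. Of the 54 members 15 (27.8%) were detected, against 190 of the 512 other mouse miRNA probes (37.1%). Only 3 members, miR-154, miR-136 and miR-543, were above the bound in every lane. Another 6 were above it in 1 or 2 lanes (miR-323-3p, miR-369-5p, miR-376b, miR-376c, miR-493 and miR-539), and 33 in none.

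The 33 members above the bound in no lane had counts of 2 to 73 with a median of 21, and the negative controls 2 to 162 with a median of 35.5. They include miR-134, a regulator of dendritic spines in rodent neurons, at 43 to 73 counts. miR-379 and miR-410, which lie at opposite ends of the best known run of miRNA genes in the locus, had 15 to 35 and 21 to 44 counts. Such counts lie within the range of probes without a target, so expression was not detectable at this depth, which does not show that it is absent. The 33 viral miRNA probes of the assay gave a second background, with counts of 3 to 79 and a median of 34. None of them reached the bound in 3 lanes, and 2 reached it in any lane.

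The 12 detected members other than miR-154, miR-136 and miR-543 spanned 37 to 216 counts with a median of 79. That range overlaps both backgrounds. Another 12 probes for 10 miRNA genes of the same locus lie outside the naming rule, among them miR-770, miR-1188 and miR-1197, and none of these was above the bound in any lane. Members were detected in 3 of 4 stretches of the locus. These were 5 of 14 probes within the span of Rtl1, 6 of 28 between Rian and Mirg, and 4 of 10 within Mirg, against 0 of 2 within Rian.

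**Figure D1:**
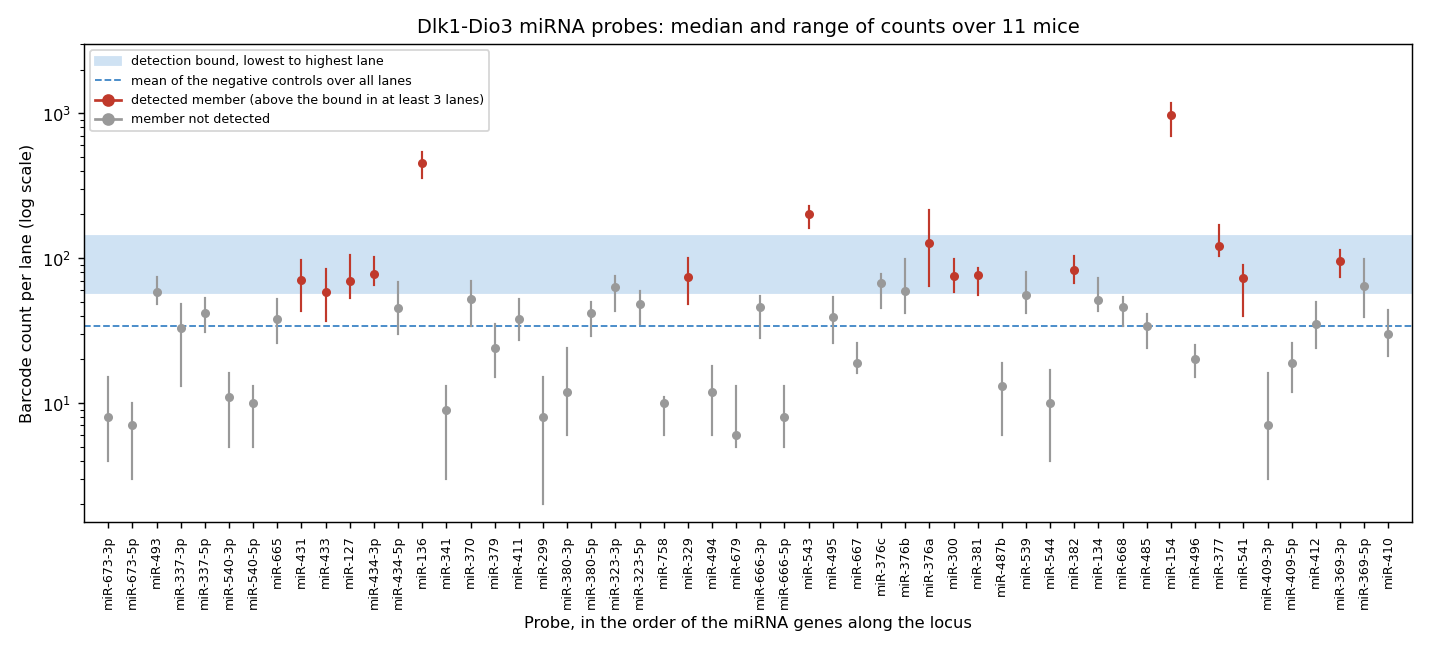
Barcode counts per lane (log scale) of the 54 Dlk1-Dio3 miRNA probes in the order of their genes along the locus, as the median (point) and range (line) over 11 mice. Only miR-154, miR-136 and miR-543 stay above the shaded span of the detection bounds, which ran from 57.1 to 143 counts between lanes.

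Library facts bear on these counts. Total miRNA counts were 451323 to 684771 per mouse, and the 54 members made up 0.578% to 0.760% of them. The bound was highest in low dose mouse 4 (143 counts), where the negative control NEG_C stood at 162 against 41 to 94 in the other lanes, and only 3 members exceeded it there, against 5 to 15 elsewhere. With the bound computed without NEG_C, a choice made after seeing the data, 20 members were detected and 5 were above it in every lane. The mRNA probe B2m, an antigen-presentation gene induced by interferon, had 924 counts in high dose mouse 2, against 4517 to 5052 in the other high dose mice and 643 to 931 in control mice. No member passed the test in any comparison when either of these mice was left out. Lanes ran in group order, and effects of lane position cannot be told apart from those of LPS.

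The labelled tissue was checked against its markers. All 5 epithelial miRNAs of the miR-200 family, 3 of 4 ciliated-cell miRNAs and both smooth muscle miRNAs (miR-143 and miR-145) were detected, as were 4 of 4 probes of the stroma and fibroblast list, 4 of 4 leukocyte, 3 of 3 erythrocyte and 2 of 2 endothelial miRNAs. Of the neural list, which names a tissue rich in this cluster, miR-124, miR-9 and miR-219 were not detected. The other two, miR-129-3p and miR-138, summed to 434.1 to 542.1 normalized counts in control mice, 602 to 813 in low dose mice and 604 to 678 in high dose mice. In the skeletal muscle list miR-206 and miR-133b were not detected, while miR-1 and miR-133a summed to 1046 to 1202, 956 to 1448 and 407 to 1114 normalized counts in the same order of groups. These are whole-tissue values, in which fewer cells of a type and less RNA per cell cannot be told apart. The part of either list in the values of the cluster was not tested. Among other imprinted loci, 4 of 30 probes of the Sfmbt2 cluster and 2 of 8 probes for miRNAs at Mest, H19, Igf2 and Gnas were detected.

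miR-154, which lies within the Mirg transcript, had the highest count of the cluster and ranked 68th of the 205 detected miRNAs. Counts of different probes also depend on their hybridisation, so ranks between probes are those of counts, not of molecules. Its normalized counts (scaled to the mean effective library) were 982, 1046 and 996 in control mice, 992, 905, 990 and 961 in low dose mice, and 874, 875, 952 and 741 in high dose mice. All 4 high dose mice stood below all 3 control mice, while the low dose mice overlapped both groups. The high dose mean was 861 ± 87.7 against 1008 ± 33.4 in control (SD, n = 4 and 3). This is a 0.854-fold ratio with a 95% confidence interval of 0.737 to 0.989, which did not pass after adjustment over 205 miRNAs (edgeR adjusted p = 0.122).

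miR-136 comes from the transcript antisense to Rtl1 and can cleave the Rtl1 messenger. It had 445, 606 and 508 normalized counts in control mice, 430.7, 426, 452.9 and 482 in low dose mice, and 559, 352, 408 and 443 in high dose mice. The groups overlapped at both doses. Its ratio to control was 0.847 at the high dose (95% confidence interval 0.679 to 1.06, edgeR adjusted p = 0.270) and 0.863 at the low dose (0.692 to 1.08, edgeR adjusted p = 0.397). miR-154 and miR-136 together made up 53.6% of the summed normalized counts of the 15 detected members.

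miR-543 followed by count, but its value cannot be read as a miRNA level without a reservation. Its probe name carries a factor of 0.009, for which the labels state no use, and only 4 of the 566 miRNA probes carry a factor above 0. That factor times the count of the positive control POS_A gave 204, 216 and 219 in control mice, where miR-543 had 202, 224 and 227 counts. In low dose mice the product was 212, 197, 190 and 182, beside measured counts of 213, 183, 209 and 194. In high dose mice it was 179, 206, 160 and 189, beside 162, 216, 184 and 190. The product was 87.1% to 111% of the count (median 96.4%) and exceeded it in 3 of 11 lanes. The difference, −17.2 to 23.6 counts, was below the detection bound in every lane. As deposited, the ratio of miR-543 to control was 0.824 at the low dose (0.699 to 0.971, edgeR adjusted p = 0.123) and 0.868 at the high dose (0.736 to 1.02, edgeR adjusted p = 0.214).

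**Figure D2:**
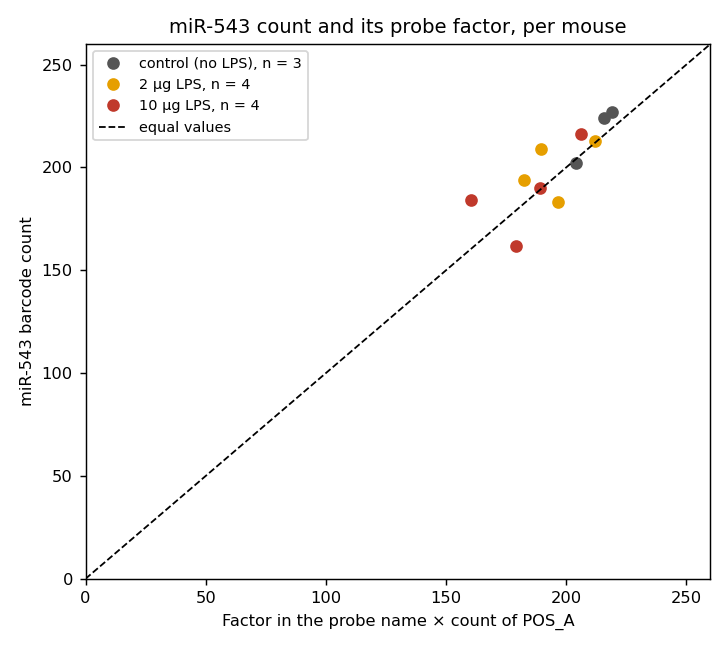
Barcode count of miR-543 (vertical axis) against the factor in its probe name times the count of positive control POS_A (horizontal axis), 1 point per mouse, coloured by group. The 11 points lie along the dashed line of equal values, with the product at 87.1% to 111% of the count.

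Of the members with weaker counts, miR-377, from Mirg, was above the bound in 10 lanes. It had 107 to 123 normalized counts in control mice, 116 to 150 in low dose mice and 107 to 155 in high dose mice, with overlap between all groups. Its ratio to control was 1.17 at the high dose (0.945 to 1.45, edgeR adjusted p = 0.274) and 1.16 at the low dose (edgeR adjusted p = 0.366).

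miR-376a, a miRNA known for A-to-I editing of its precursor in brain, varied most between mice of a group. It stood at 144, 75.0 and 66.1 normalized counts in control mice, at 68.9, 220, 107 and 115 in low dose mice, and at 139, 150, 122 and 190 in high dose mice. Its coefficient of variation within groups was 38.2%, against 8.87% from counting alone, and against 6.55% to 22.4% within groups for the other detected members. Its ratio to control had wide intervals, at 1.57 at the high dose (0.917 to 2.68, edgeR adjusted p = 0.221) and 1.32 at the low dose (0.774 to 2.27, edgeR adjusted p = 0.548). Control mouse 1 was the high control value, and without it the log2 change at the high dose was 1.11 instead of 0.65 and at the low dose 0.86 instead of 0.41. Without low dose mouse 2, the highest of all 11, the low dose value was 0.02.

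miR-300 came closest to the threshold. It stood at 63.2, 66.3, 62.9 and 64.8 normalized counts in the 4 low dose mice, against 72.7, 100 and 101 in control mice, and the groups did not overlap. The ratio was 0.707 (0.572 to 0.874), a log2 change of −0.50 ± 0.14 SE that missed the threshold (edgeR adjusted p = 0.0548). The 4 low dose values had an SD of 1.60 around a mean of 64.3, a smaller spread than counting alone would give. Counting alone would give a coefficient of variation of 11.4% at the mean count of miR-300 over all mice. miR-300 was above the detection bound in all 3 control mice, in 0 of 4 low dose mice and in 2 of 4 high dose mice. It thus entered the test only through the groups where it was higher, and its low dose values cannot be told from background. It passed in 4 of 22 alternatives, 1 of them without control mouse 1, and its adjusted p, by edgeR or the test that replaced it, ran from 0.0249 to 0.903. At the high dose it had 72.8, 79.4, 87.7 and 71.1 normalized counts, a ratio to control of 0.857 (0.694 to 1.06, edgeR adjusted p = 0.274). The similar miR-381 overlapped between groups at both doses, with log2 changes of −0.10 ± 0.15 SE at the high dose and −0.14 ± 0.15 at the low dose (edgeR adjusted p = 0.639 and 0.624).

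miR-382 had 89.1, 81.4, 64.6 and 81.4 normalized counts in high dose mice, against 79.4, 110 and 107 in control mice, a log2 change of −0.32 ± 0.15 SE (edgeR adjusted p = 0.143). At the low dose its change was −0.28 ± 0.14 (edgeR adjusted p = 0.219). Control mouse 1 was the control value that overlapped both LPS groups. Without that mouse the high dose change was −0.45 (edgeR adjusted p = 0.0426), the only 1 of 23 alternatives in which miR-382 passed. miR-329 had 60.3, 57.8, 70.4 and 73.2 normalized counts in high dose mice, against 70.7, 102 and 90.8 in control mice, a log2 change of −0.42 ± 0.18 SE (edgeR adjusted p = 0.122). Here too the overlap came from control mouse 1.

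miR-369-3p, which in human cells can recruit Argonaute to AU-rich elements, stood at 93.9 ± 22.6, 89.0 ± 13.6 and 102 ± 6.95 normalized counts in order of dose (0, 2 and 10 µg, SD, n = 3, 4 and 4). Its log2 change at the high dose was 0.13 ± 0.17 SE (edgeR adjusted p = 0.580). miR-434-3p, 1 of the miRNAs antisense to Rtl1, stood at 77.5 ± 12.2, 79.0 ± 12.3 and 79.9 ± 3.71, with a high dose change of 0.05 ± 0.15 SE (edgeR adjusted p = 0.840).

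The other detected miRNAs antisense to Rtl1 lay between 58.4 and 76.3 normalized counts on average. miR-127, a repressor of Rtl1, averaged 71.3 ± 7.80 in control, 79.6 ± 11.6 in low dose and 76.8 ± 23.3 in high dose mice. miR-431, which targets Pax7 in mouse muscle stem cells, averaged 64.7 ± 20.6, 75.2 ± 15.2 and 74.0 ± 13.3 in the same order. miR-433 averaged 63.2 ± 14.1, 63.3 ± 12.5 and 49.8 ± 2.52, and its 4 high dose mice, at 46.4 to 52.6, stood below all control mice. It was above the detection bound in 2 of 3 control, 1 of 4 low dose and 0 of 4 high dose mice. It thus entered the test only through the groups where it was higher, and its high dose values cannot be told from background. miR-541, from Mirg, averaged 61.1 ± 8.85, 77.5 ± 9.76 and 61.4 ± 18.0. Each of these miRNAs was above the bound in 3 to 6 lanes, and their adjusted p against control was 0.235 to 0.999 in edgeR.

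**Figure D3:**
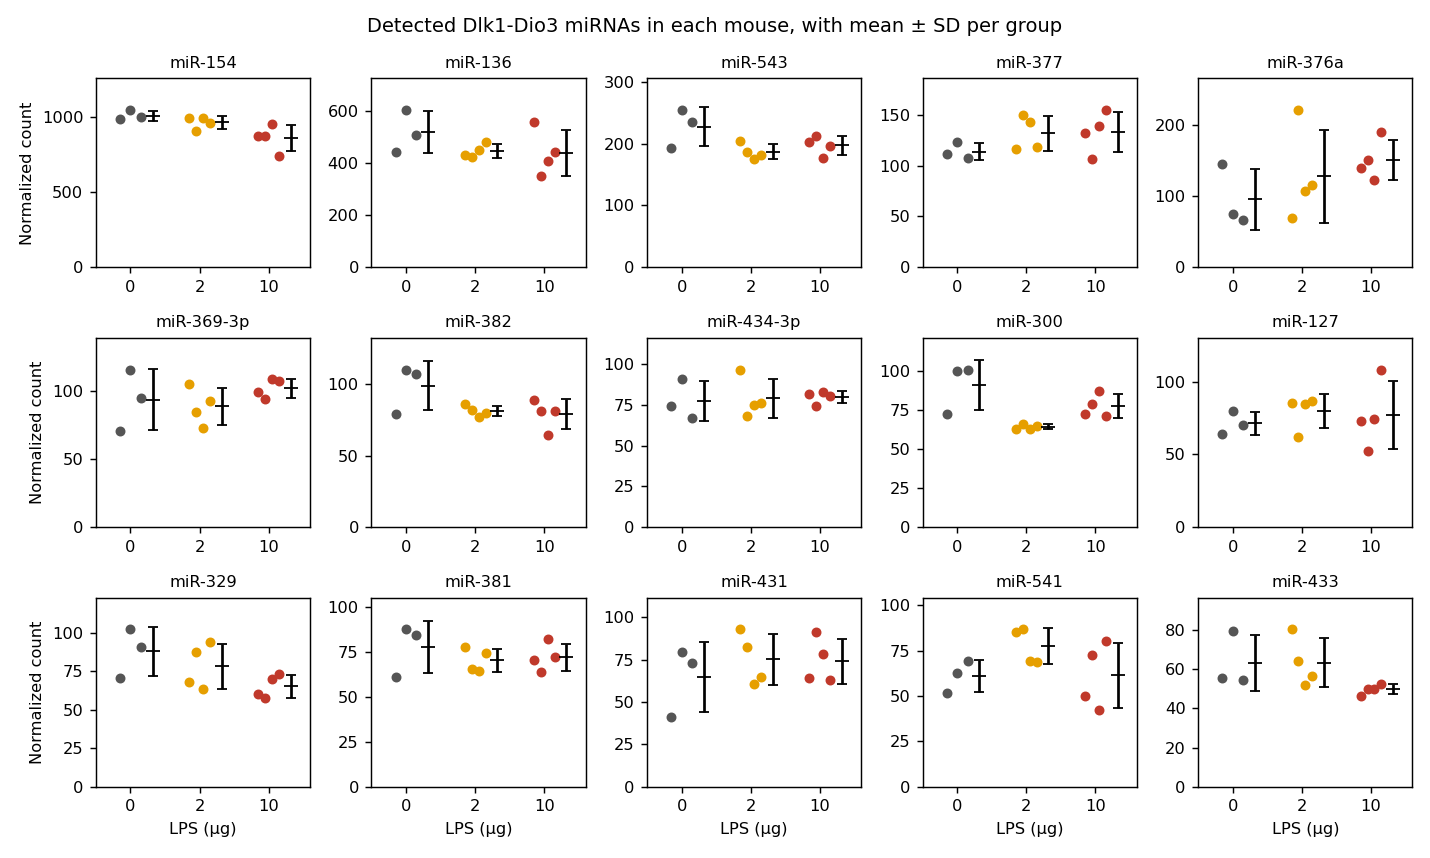
Normalized counts of the 15 detected members in each mouse (points) by LPS dose in µg, with the mean ± SD of each group in black (n = 3, 4 and 4), ordered by mean count, each panel with its own axis from 0. The high dose values of miR-154 lie below the 3 control values. The 4 low dose values of miR-300 lie at 62.9 to 66.3, closer together than counting error alone would give. Their counts were all below the detection bound of their lanes.

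Against control, no member passed at the high dose, 0 of 15 tested, where 37 of all 205 detected miRNAs (18.0%) did in edgeR, 10.2% higher and 7.80% lower. At an unadjusted p under 0.05 there were 3 of 15 (miR-329, miR-154 and miR-382), against 33.2% of all miRNAs. The high dose and control mice did not overlap in 2 of 15 members, miR-154 and miR-433, against 27.3% of all. For miR-433 the high dose counts were all below the detection bound. The median log2 change was −0.10 for the members and −0.03 over all 205, and 7 members had positive and 8 negative changes. The 95% confidence intervals of the 15 ratios ran from 0.571 to 2.68. A p that misses the threshold does not show that a level stayed the same.

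At the low dose, 0 of 15 members passed, where 5.85% of all miRNAs did in edgeR (3.41% higher and 2.44% lower), and 2 of 15 (miR-300 and miR-543) had an unadjusted p under 0.05, against 27.3%. Only miR-300 had no overlap with control, against 23.9% of all miRNAs, and its low dose counts were all below the detection bound. The median log2 change was −0.07 for the members and −0.0015 over all, again with 7 positive and 8 negative. Both comparisons use the same 3 control mice, so their values are not independent. Over all 15 members the intervals of the low dose ratios ran from 0.572 to 2.27.

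**Figure D4:**
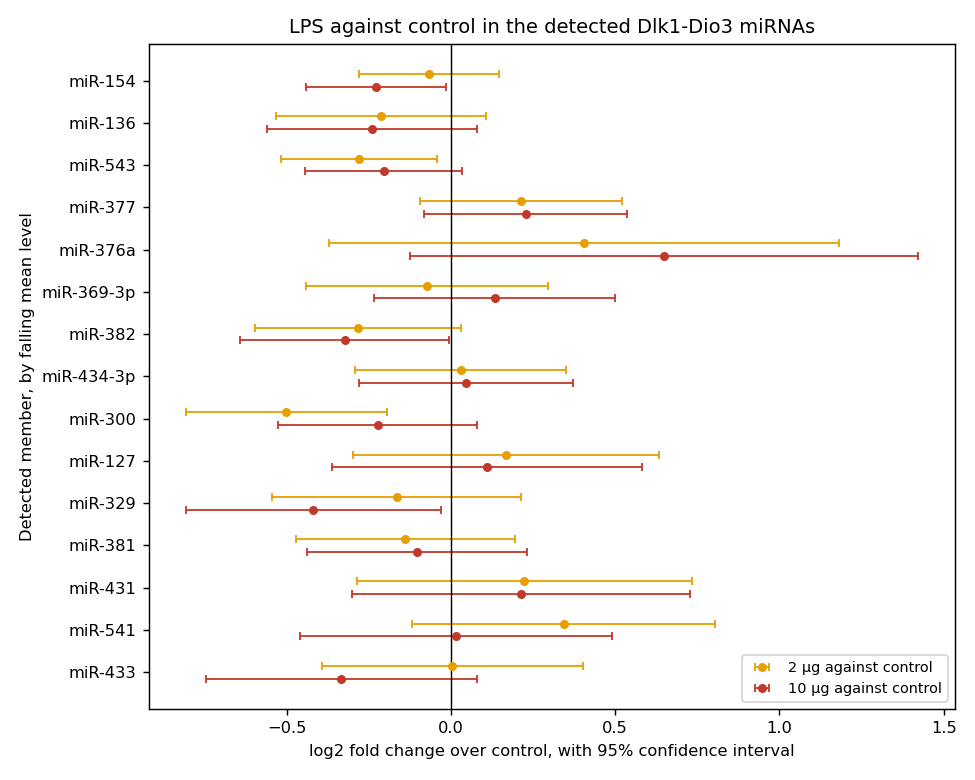
Log2 fold change over control (horizontal axis) of the 15 detected members at 2 µg and 10 µg of LPS, with 95% confidence intervals from edgeR, ordered by mean count. No member passed the adjusted threshold at either dose, and miR-376a has the widest intervals.

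Between the doses, 0 of 15 members passed in edgeR, against 0.488% of all miRNAs, and none had an unadjusted p under 0.05, against 13.2%. The smallest adjusted p were those of miR-300 (log2 difference 0.28 ± 0.13 SE, high minus low dose, edgeR adjusted p = 0.381), miR-433 (−0.34 ± 0.17, edgeR adjusted p = 0.410) and miR-154 (−0.16 ± 0.09, edgeR adjusted p = 0.448). The high and low dose mice did not overlap in 1 of 15 members, miR-300, against 7.80% of all. The low dose counts of miR-300 and the high dose counts of miR-433 were all below the detection bound. In the test for any difference among the 3 groups 0 of 15 passed, against 13.7% of all, with the smallest adjusted p of a member at 0.0697 in edgeR, that of miR-300.

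Summed over the 15 detected members, the cluster had 2751 ± 249 normalized counts in control mice, 2614 ± 45.3 in low dose mice and 2520 ± 83.2 in high dose mice (SD, n = 3, 4 and 4). The sums per mouse were 2516, 3012 and 2725 in control, 2652, 2638, 2550 and 2617 at the low dose, and 2614, 2412, 2540 and 2514 at the high dose. All 3 groups overlapped. The log2 ratio of the mean sums to control was −0.13 at the high dose and −0.07 at the low dose. Without control mouse 2, the highest sum, it was −0.056 and −0.0035, and scaled to the positive controls it was 0.059 and 0.12. The sum over 15 members includes miR-543, whose count carries the reservation given above. Without miR-543 the sum was 2524 ± 219 in control, 2427 ± 35.9 in low dose and 2323 ± 89.7 in high dose mice. Without miR-154, miR-136 and miR-543 the remaining 12 members summed to 996 ± 105, 1017 ± 79.0 and 1022 ± 75.8 in the same order. Those 12 had no lower mean at either dose.

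Whether members vary together between mice was described by the Pearson correlation of their log2 normalized counts after subtracting group means, over 11 mice. The median r was 0.26 over 105 pairs of detected members, of which 72.4% were positive. It was −0.0054 over 17955 pairs of other detected miRNAs, and 0.0036 over 2080 pairs of the 65 other miRNAs with a mean count up to 200. All pairs share their lanes, depth and scaling, and no test was made. The member value rests on control mouse 1, without which it was 0.06. miR-154 and miR-136, the 2 members well above background, had r = 0.03. The miRNAs outside the cluster whose values followed the mean of the members most closely were miR-223 (r = 0.85), miR-455 (0.75), miR-2141 (0.74), miR-199a-3p (0.70) and miR-190 (0.67), chosen as the highest of 190 correlations.

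Counting error limits what the weaker members can show. As a share of the variance within groups, counting alone would give 0.877 in miR-300, 0.820 in miR-381, 0.799 in miR-434-3p and 0.721 in miR-382. The share was 0.248 in miR-154 and 0.0977 in miR-136. These shares cover counting error only.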

How the data were processed

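The deposited values are barcode counts by probe and lane, with no normalization recorded by the authors. The authors deposited these without stating further steps, and they were treated as estimated counts, since 1 quality value per column has decimals, although every probe value was whole. Per the design text the assay was the nCounter mouse miRNA panel. No source used here names the counting software. Detection used the mean plus 2 SD of 8 negative controls in at least 3 lanes, which left 205 of 566 miRNA probes. After TMM scaling, a one-way model of all 11 mice was tested by quasi-likelihood F-test (edgeR 4.0.16, R 4.3.3). Adjustment by Benjamini-Hochberg ran across the 205 miRNAs, and the threshold was 0.05. The fit was tested on simulated counts. The members and the marker lists were chosen with earlier results of these data known. Named were every detected member, the 8 with the highest counts and the 3 with the smallest p per comparison in full, the 5 most similar other miRNAs, and detected probes of the marker lists. Alternatives covered scaling, filters, background and probe factor subtraction, DESeq2 1.42.0, the one-way test of the design text, leaving out each mouse, and a block for the replicate number. Mature sequences and gene order came from RefSeq (GRCm38.p6).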

Additional observations from a re-analysis of the deposited data

Results flagged for a closer look

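Low dose mouse 2 stood apart for miR-127, at 62.3 normalized counts against 84.7 to 86.5 in the other 3 low dose mice, by its distance from them relative to the range of the group. Of 32 groups of 4 mice looked at (15 detected members and their sum, at 2 doses), it was the only such case. Chance alone would flag about 1 in 20 such groups, so 1 of 32 is no more than chance gives.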

How the results depend on the processing

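The low dose counts of miR-300, which enter its calls below, were all under the detection bound. Calls of members changed as follows. miR-300 at the low dose passed with RLE size factors (−0.51, edgeR adjusted p = 0.0476), after background subtraction (−1.04, edgeR adjusted p = 0.0254), in the one-way test of the design text (−0.48, adjusted p = 0.0482 by that test) and without control mouse 1 (−0.64, edgeR adjusted p = 0.0249), so that 1 of 15 members was called in each. The same low dose fits called 13, 17, 18 and 6 of all 205 miRNAs, in that order. miR-382 at the high dose passed without control mouse 1 (−0.45, edgeR adjusted p = 0.0426), which was 1 of 23 alternatives. The high dose fits leaving out 1 mouse called 26 to 43 of all 205 miRNAs. Among the 3 groups miR-300 passed after background subtraction (1 member, with 26 of all 205 miRNAs) and without control mouse 1 (with 21). Without the filter 1 of 54 members and 34 of all 566 miRNAs passed at the high dose. The member was miR-380-3p at 1.17 (2.26-fold, edgeR adjusted p = 0.0430), named after its values were seen, with 14 to 24 counts in high dose and 6 to 11 in control mice, above the detection bound in 0 of 11 lanes. Over the fits leaving out 1 mouse, the number of members called was 0 to 1 at the high dose, at the low dose and among groups, and 0 between doses.

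Scaled to the positive controls, the median member change was 0.10 at the high and 0.13 at the low dose, the sum stood 0.059 and 0.12 above control (log2, against −0.13 and −0.07 here), and miR-154, miR-136 and miR-381 turned to 0.13, 0.0043 and 0.067 at the low dose. Scaled to the mRNA probes, B2m included, the median was −0.45, −0.26 and −0.19 (high and low dose, then between doses), the sum −0.47, −0.26 and −0.21 and the median r 0.76, while miR-377, miR-369-3p and miR-434-3p at the high dose turned to −0.17, −0.21 and −0.32. The median of all miRNAs at the high dose was then −0.39, against −0.03 here. With the probe factor subtracted, miR-543 turned to 0.68 and 0.41 at the high and low dose, with standard errors above 1. The 3 members above the bound in all lanes had a median of −0.21 at the low dose and a sum of −0.22 at the high dose, and without the filter the low dose median was 0.065. Leaving out a mouse, miR-369-3p at the high dose ran from −0.026 (without control mouse 1) to 0.31 (without control mouse 2), and miR-434-3p from −0.047 (without control mouse 3) to 0.17 (without control mouse 2). Leaving out a mouse gave medians of −0.23 to −0.01 at the high dose, −0.10 to 0.10 at the low dose and −0.04 to 0.05 between doses, and a median r of 0.06 to 0.33. The cause of these shifts was not tested.

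Over all 205 miRNAs, calls at the high dose, at the low dose, between doses and among groups were 37, 12, 1 and 28 here. They were 18 at the high dose, 0 between doses and 13 among groups with the positive controls, and 2, 0, 0 and 2 with the mRNA probes. DESeq2 called 20 at the low dose and 4 between doses, giving no adjusted p for 12 and 0 of the 15 members, and the one-way test called 2 between doses. Leaving out a mouse gave 26 to 43, 3 to 13, 1 to 14 and 18 to 31. The low dose count was 3 without low dose mouse 4, 4 without control mouse 2 and 6 without control mouse 1 or low dose mouse 2. Between doses it was 14 without high dose mouse 3 and 2 without high dose mouse 2 or low dose mouse 3, and among groups 18 without control mouse 3. Of 10 pairs of same-numbered mice, 2 had deviations from their group means correlated at r over 0.1 (range −0.29 to 0.40). The highest r was that of low dose mouse 1 with high dose mouse 1. The replicate number as a block called 28, 11, 1 and 22 miRNAs and 0 members in each comparison.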
